A study of Homo sapiens with 9 samples.

Results

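A set of 9 cytochrome P450 genes was examined for open chromatin in the human hepatoma line HepG2. They were CYP1A1, CYP1A2, CYP2C8, CYP2E1, CYP3A4, CYP3A5, CYP3A7, CYP7A1 and CYP27A1, 9 of the 57 P450 genes and of 19794 protein-coding genes of the annotation used (GENCODE on GRCh37). Accessible DNA was mapped by ATAC-seq, in which a transposase cuts and tags DNA that is not covered by nucleosomes. Cells were transfected with 50 nM of a non-targeting siRNA (NTG, the control) or of 1 of 2 siRNAs against the chromatin remodeling ATPase INO80 (siINO80#1 and siINO80#2), and were harvested 72 hours later. There were 9 samples, 3 for each siRNA, all from 1 cell line grown in the same medium, and the 3 samples of an siRNA share 1 deposited peak list. No difference between lists could therefore be set against the spread between replicates, and no test of a difference is given. The level of INO80 itself is not measured by these lists.

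P450 enzymes are heme monooxygenases that insert oxygen into lipophilic substrates. Families 1 to 3 act mainly on drugs and other foreign compounds, and several of their genes are induced by ligand-bound receptors, such as the aryl hydrocarbon receptor for CYP1 genes and the pregnane X receptor for CYP3A genes. CYP7A1 and CYP27A1 belong to the synthesis of bile acids from cholesterol. Cultured hepatoma lines are known to hold much lower levels of many drug-metabolising P450s than the liver does.

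A region was assigned to a gene when a peak of any list overlapped the gene body or the 20 kb on either side of it. After peaks that overlapped by at least 1 bp were merged across the 3 lists, 19 of 111260 regions met this rule. A start site was called open when a peak summit lay within 1 kb of the start of the gene's principal transcript. Peak strength is given as fold enrichment, the reads at the summit over the local background of the same list, and as the percentile of that fold enrichment among all peaks of the list. Lists of unequal length do not share a scale of ranks: over the 29863 regions found in all 3 lists, the percentile differed from that in NTG by a median of -3.96 points in siINO80#2 (quartiles -16.8 and 4.0) and -0.0002 points in siINO80#1 (quartiles -7.84 and 8.44). It is also given as pileup, the number of fragments stacked at the summit, divided by the genome background of the list. The genome background was 3.82 fragments in NTG, 5.16 in siINO80#1 and 5.34 in siINO80#2, and the lists held 69730, 69333 and 53113 peaks. A peak at the genome background needed at least 12 fragments in NTG, 14 in siINO80#1 and 15 in siINO80#2, which is 3.14, 2.72 and 2.81 times the background. Where the local background was higher, more were needed, and the lists had been filtered by a criterion that is not given, so a site without a peak is not shown to be closed. A site open in fewer cells and one less open in each cell cannot be told apart.

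Most liver markers had an open start in these cells, and the markers of other cell types examined did not. Of 10 liver genes, 9 had an open start in NTG and 8 in each siINO80 list. The shares of all protein-coding genes were 55.8% in NTG, 55.8% in siINO80#1 and 49.1% in siINO80#2. ALB, the albumin gene, had a start-site peak in NTG alone, with its summit 685 bp before the start. The nearest ALB summit lay 1235 bp away in siINO80#1 and 1128 bp in siINO80#2, just past the 1 kb limit. AFP, the fetal counterpart of albumin, had no summit within that limit in any list, the nearest lying 1119 bp away in siINO80#1. Of 4 annotated genes of blood, fibroblast, muscle and glial cells (PTPRC, COL1A1, MYOD1 and GFAP), 0 had an open start in any list.

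Most of the 9 P450 genes had no open start site. In NTG, 3 of 9 were open (CYP1A1, CYP3A5 and CYP27A1), against 55.8% of all protein-coding genes. The same 3 were open in siINO80#1, where the share of all genes was 55.8%. In siINO80#2, CYP3A5 and CYP27A1 were open, 2 of 9 against 49.1%. Thus 2 of 9 starts were open in all 3 lists (47.0% of coding genes), CYP1A1 was open in NTG and siINO80#1 (1 of 9 against 5.33%), and 6 of 9 were open in none. No member was open in NTG alone (2.80% of coding genes) or in both siINO80 lists without NTG (0.854%). The distance to the nearest summit separated the genes more finely. In NTG it was 0.028 kb for CYP27A1, 0.525 kb for CYP1A1, 0.75 kb for CYP3A5, 3.63 kb for CYP3A7, 10.8 kb for CYP3A4, 13.3 kb for CYP7A1, 17.7 kb for CYP1A2, 41.7 kb for CYP2C8 and 104 kb for CYP2E1. The median over all coding genes was 315.5 bp.

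**Figure D1:**
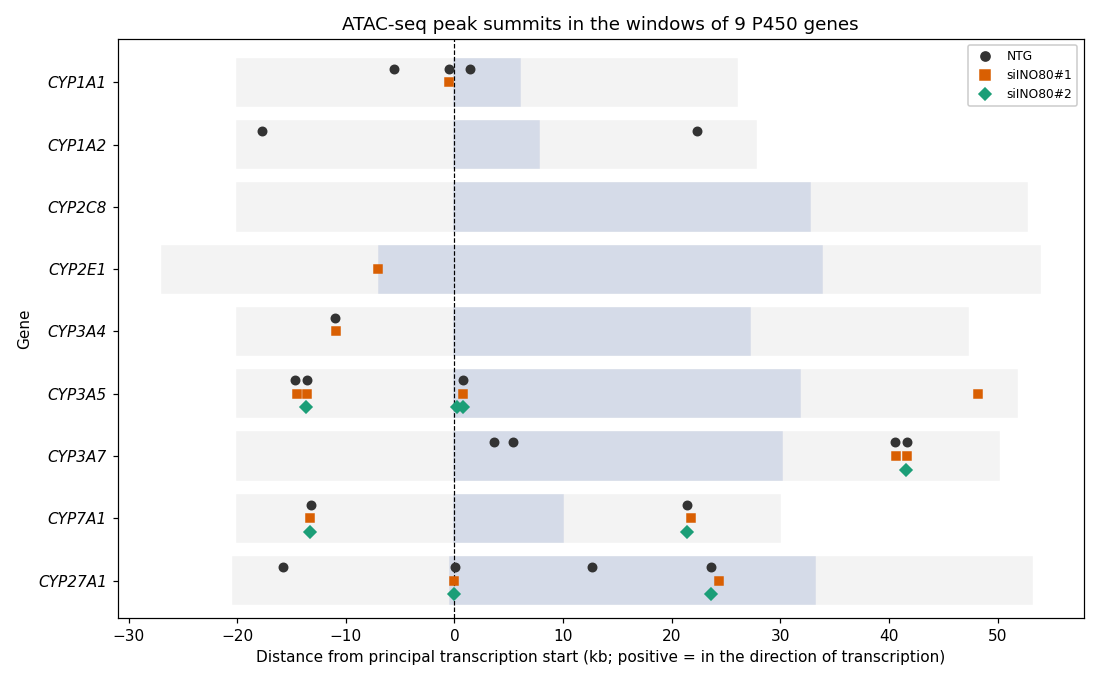
Summits of the ATAC-seq peaks in the windows of the 9 P450 genes, 1 row per gene. The horizontal axis is the distance in kb from the start of the principal transcript, positive in the direction of transcription, blue boxes are gene bodies, grey boxes the 20 kb on either side, and symbols are the strongest summit of each region in NTG (circles), siINO80#1 (squares) and siINO80#2 (diamonds). Summits stood near the dashed start line in CYP1A1, CYP3A5 and CYP27A1, CYP2C8 had none, and regions in 2 overlapping windows appear in both rows.

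The genes also differed in how many regions lay around them. CYP3A5 had 5 regions in its window, CYP3A7 and CYP27A1 had 4 each, CYP1A1 had 3, CYP1A2 and CYP7A1 had 2 each, CYP2E1 and CYP3A4 had 1 each and CYP2C8 had 0. The median over coding genes was 3 (quartiles 2 and 6), and 10.9% of coding genes had no peak of any list in the window, as CYP2C8 did. Regions were counted once in the totals, although the windows of CYP1A1 and CYP1A2 share 1 region and those of CYP3A5 and CYP3A7 share 2.

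Of the 19 regions, 16 had a peak in NTG, 11 in siINO80#1 and 7 in siINO80#2. These are 84.2% (95% Wilson interval 62.4 to 94.5), 57.9% (36.3 to 76.9) and 36.8% (19.1 to 59.0), beside 61.5%, 61.2% and 46.4% of all regions. Over regions in the windows of all coding genes, the like comparison, the shares were 65.7%, 64.4% and 49.1%, each inside the interval of the members. The intervals cover counting error alone. By class, 6 regions were in all 3 lists (26.8% of all regions), 7 in NTG alone (24.4%), 3 in NTG and siINO80#1 (7.64%), 2 in siINO80#1 alone (21.6%) and 1 in siINO80#2 alone (11.7%). None was in NTG and siINO80#2 without siINO80#1 (2.62%) and none in both siINO80 lists without NTG (5.19%). Of the 16 regions with an NTG peak, 9 also had a peak in siINO80#1, which is 56.3% (33.2 to 76.9) against 56.1% over the genome. In siINO80#2 it was 6 of 16, or 37.5% (18.5 to 61.4), against 47.9%. Both genome shares lie inside the intervals of the members. With the lists trimmed to equal size (the 53113 strongest peaks of each), NTG alone held 4 of 15 regions, with 6 in all 3 lists. The shares of all regions were not computed at that size, so these counts have no background beside them.

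**Figure D2:**
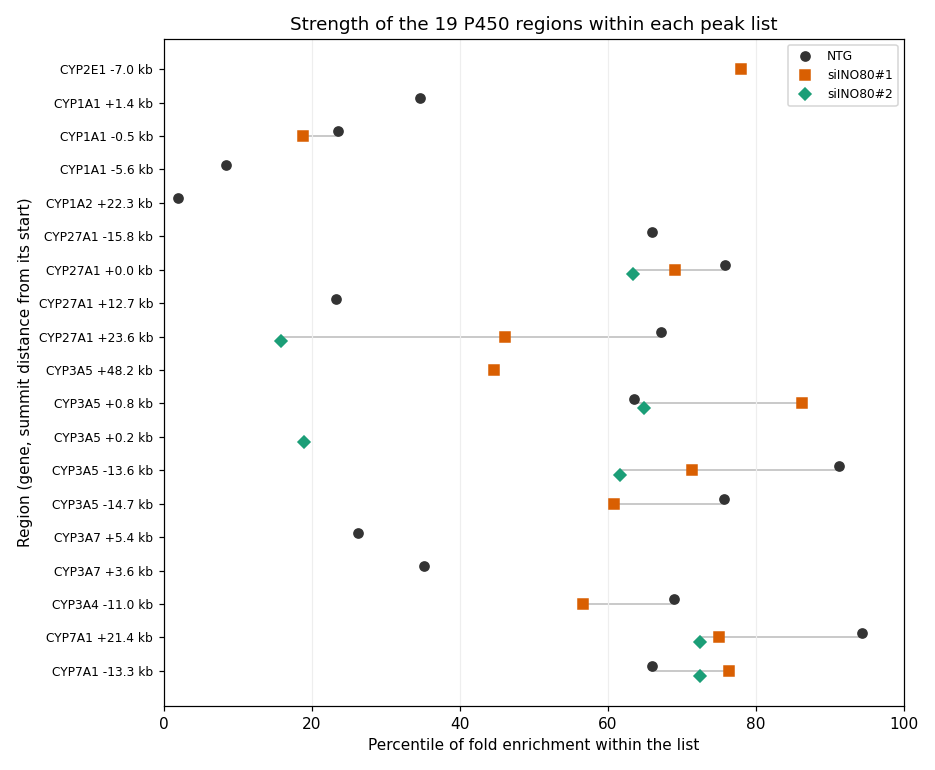
Percentile of fold enrichment within the list (horizontal axis) for each of the 19 regions, named by gene and summit distance from its start. Circles are NTG, squares siINO80#1 and diamonds siINO80#2, and a region without a symbol for a list had no peak there. The 6 regions of all 3 lists lie at the CYP27A1 start and first intron, the CYP3A5 first intron and upstream site, and on both sides of CYP7A1.

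CYP1A1 and CYP1A2 lie head to head and share an intergenic stretch that holds response elements of the aryl hydrocarbon receptor. CYP1A1, which oxidises polycyclic aromatic hydrocarbons, had a weak peak 525 bp before its start in NTG and 483 bp before it in siINO80#1. Its fold enrichment was 2.77 in NTG and 2.47 in siINO80#1, at percentiles 23.6 and 18.7, and siINO80#2 had no peak there. The pileup was 20 and 24 fragments, 5.24 and 4.65 times background, so the siINO80#1 value was 0.889 of that in NTG (95% counting interval 0.470 to 1.70). In siINO80#2 the nearest summit to the CYP1A1 start lay 148 kb away. The CYP1A1 start was no longer open in any list when lists were trimmed to equal size or a −log10 q of at least 5 was asked. A region in intron 1, at +1.39 kb, was found in NTG alone (fold enrichment 3.0, percentile 34.6). A region 5.57 kb before the start, between CYP1A1 and CYP1A2, was also in NTG alone (2.51, percentile 8.35).

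CYP1A2, which metabolises caffeine, had its nearest summit 17.7 kb from its start in NTG. Its window held that intergenic region and a region at +22.3 kb in NTG alone, with a fold enrichment of 2.25 at percentile 1.92, close to the bottom of the list. The latter lay 10.9 kb before the start of CSK, another gene.

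The core of the xenobiotic response element, GCGTG on either strand, occurred in 200 bp around the summit of 3 of the 4 regions at CYP1A1 and CYP1A2. Over all 19 regions it occurred in 5 (26.3%), beside 13.04% of all regions. The sequence around the NTG summit upstream of CYP1A1 is shown because it was the open site nearest to that start. It is read on the gene's strand (GRCh37, minus strand), with the core in capitals.
CYP1A1 upstream, chr15:75018294-75018493: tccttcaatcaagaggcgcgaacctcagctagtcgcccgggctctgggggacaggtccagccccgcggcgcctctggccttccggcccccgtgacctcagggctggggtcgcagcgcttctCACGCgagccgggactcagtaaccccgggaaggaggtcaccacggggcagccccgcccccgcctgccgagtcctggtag
Its GC content was 71.5%, with 19 CpG dinucleotides. This match is a description and not evidence of binding.

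CYP2C8, which oxidises paclitaxel and arachidonic acid, had no peak in its window. The nearest summit to its start lay 41.7 kb away in NTG, 63.6 kb in siINO80#1 and 77.9 kb in siINO80#2. The 200 bases before the start nevertheless held a match to the HNF4A motif CAAAGTCCA, found in 0.248% of coding-gene promoters of this length, and one to the FOXA motif TGTTTAC, found in 1.61%. HNF4A and FOXA proteins are liver transcription factors. The promoter is printed with both matches in capitals, as a start without a peak to set beside the open CYP27A1 start.
CYP2C8 promoter, chr10:96829255-96829454, minus strand: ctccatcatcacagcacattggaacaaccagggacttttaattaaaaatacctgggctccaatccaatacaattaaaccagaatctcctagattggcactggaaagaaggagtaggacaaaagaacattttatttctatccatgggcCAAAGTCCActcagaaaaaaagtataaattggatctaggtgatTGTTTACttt
It was poor in GC (37%) and held 0 CpG.

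CYP2E1, which oxidises ethanol and paracetamol, had 1 region, in siINO80#1 alone. It lay 7.03 kb before the principal start and 75 bp before the start of another annotated CYP2E1 transcript. Its fold enrichment was 4.87 at percentile 78.0, with a pileup of 29 fragments, 5.62 times background (3.77 to 8.08), so it was no weak peak. NTG had no summit within 104 kb of the principal start and siINO80#2 none within 133 kb. When any annotated transcript start was allowed, CYP2E1 was open in siINO80#1.

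The CYP3A genes lie in 1 cluster on chromosome 7 and share much of their sequence. CYP3A4 is the main drug-metabolising P450 of adult liver, CYP3A5 is a polymorphic relative and CYP3A7 is the fetal form. Of CYP3A4, CYP3A5 and CYP3A7, CYP3A5 alone had an open start. CYP3A43, a further CYP3A gene on chromosome 7 outside the set, had an open start in siINO80#1 alone (percentile 27.2).

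CYP3A4 had 1 region, 10.97 kb before its start in NTG and 10.88 kb before it in siINO80#1. The fold enrichment was 4.36 in NTG and 3.41 in siINO80#1, at percentiles 68.9 and 56.6, and siINO80#2 had no peak there. The pileup was 20 fragments in both lists, 5.24 and 3.88 times background, a ratio of 0.741 with a counting interval of 0.378 to 1.45. In siINO80#2 the nearest summit was 45.5 kb from the start. The start of CYP3A4 itself had no peak in any list.

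CYP3A5 had a region in intron 1, 0.75 to 0.79 kb after its start, in all 3 lists. Its fold enrichment was 3.99 in NTG, 6.0 in siINO80#1 and 3.79 in siINO80#2, and its percentiles were 63.6, 86.2 and 64.9. The pileup was 19, 41 and 23 fragments, 4.98, 7.95 and 4.31 times background. The siINO80#1 value was thus highest on each scale, at 1.60 times NTG (0.907 to 2.92) and 1.84 times siINO80#2 (1.08 to 3.22), while siINO80#2 was at 0.866 of NTG (0.451 to 1.68). Over all regions found in the 3 lists, the median ratio to NTG was also higher in siINO80#1 (0.905) than in siINO80#2 (0.750). The median ratio between the siINO80 lists was not computed. A neighbouring region in siINO80#2 alone covered the start base itself, with a summit at +0.193 kb, a fold enrichment of 2.53, percentile 18.9 and a pileup of 15, the fewest that list could call. It ended 3 bp from the intronic region, and merging peaks within 500 bp joined the pair. When the peak had to cover the start base, CYP3A5 was open in siINO80#2 alone.

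Upstream of CYP3A5, 13.6 kb before its start and inside intron 12 of the CYP3A7-CYP3A51P readthrough gene, was the strongest CYP3A region in NTG. Its fold enrichment was 7.32 in NTG, 4.29 in siINO80#1 and 3.63 in siINO80#2, at percentiles 91.3, 71.4 and 61.7. The pileup of 35, 26 and 22 fragments was 9.17, 5.04 and 4.12 times background. Both siINO80 values were lower than in NTG, at 0.550 (0.318 to 0.941) and 0.450 (0.251 to 0.789) of it. Each interval contains the median ratio over all regions found in the 3 lists, 0.905 in siINO80#1 and 0.750 in siINO80#2. Beside this upstream region, 14.7 kb before the start, lay a region of NTG and siINO80#1 with fold enrichments of 4.95 and 3.58 (percentiles 75.7 and 60.9).

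CYP3A7 had no open start, and its own gene body held 2 weak regions in NTG alone. They lay in introns 1 and 2, at +3.63 and +5.42 kb, with fold enrichments of 3.02 and 2.85 at percentiles 35.1 and 26.2 and pileups of 14 and 13. The other 2 regions of its window were those upstream of CYP3A5. The last region of the CYP3A5 window, in siINO80#1 alone, lay 48.2 kb after the CYP3A5 start in an untranslated part of ZSCAN25 (fold enrichment 2.99, percentile 44.7).

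Both CYP3A5 sites found in all 3 lists are printed on the minus strand, on which these genes are transcribed, with motif matches in capitals. The motifs searched on both strands were FOXA (TGTTTAC), HNF1 (GTTAATNAT), C/EBP (TTGCNNAA), AP-1 (TGACTCA), HNF4A (CAAAGTCCA) and, by name, the nuclear receptor repeats DR3 and ER6. The upstream site held a FOXA match, and the intronic site held an AP-1 match followed by an HNF1 match.
CYP3A5 upstream, chr7:99291107-99291306: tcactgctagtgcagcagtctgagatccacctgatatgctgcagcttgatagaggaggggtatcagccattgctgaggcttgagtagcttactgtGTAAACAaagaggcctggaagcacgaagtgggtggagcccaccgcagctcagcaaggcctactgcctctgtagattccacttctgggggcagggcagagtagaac
CYP3A5 first intron, chr7:99276769-99276968: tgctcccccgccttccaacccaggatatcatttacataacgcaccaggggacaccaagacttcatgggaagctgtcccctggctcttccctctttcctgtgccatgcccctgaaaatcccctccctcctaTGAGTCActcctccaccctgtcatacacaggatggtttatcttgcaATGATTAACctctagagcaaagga
The FOXA motif occurred in 3 of the 19 regions (15.8%), among them the region 13.3 kb before CYP7A1, beside 4.95% of all regions. HNF1 occurred in 1 region (5.26%, beside 1.06%), AP-1 in 1 (5.26%, beside 11.9%) and C/EBP in 3 (15.8%, beside 10.3%). HNF4A, DR3 and ER6 had no match in the 19 regions, and were found in 0.802%, 0.0737% and 0.0315% of all regions.

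The promoters of the 3 CYP3A genes were without a summit in their first 200 upstream bases in each list. Those of CYP3A4 and CYP3A5 carry a known element, the ER6 repeat through which the pregnane X receptor acts. A match to ER6 occurred in the 200 bases before the start of 5 of 19794 coding genes (0.0253%), among them CYP3A4 and CYP3A5, and not CYP3A7. The search allowed no mismatch to the pattern, so near matches were not counted. The CYP3A7 stretch below holds such a near match at the like place, with ttaact where CYP3A4 has TGAACT, and its function was not tested. The stretch from 200 to 71 bases before each start is printed with the match in capitals.
CYP3A4 promoter, chr7:99381878-99382007: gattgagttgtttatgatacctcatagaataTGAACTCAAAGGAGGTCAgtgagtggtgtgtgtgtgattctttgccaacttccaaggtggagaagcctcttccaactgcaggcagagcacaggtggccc
CYP3A5 promoter, chr7:99277690-99277819: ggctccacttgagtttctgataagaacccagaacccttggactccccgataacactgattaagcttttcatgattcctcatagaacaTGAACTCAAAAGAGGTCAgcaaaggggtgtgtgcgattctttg
CYP3A7 promoter, chr7:99332890-99333019: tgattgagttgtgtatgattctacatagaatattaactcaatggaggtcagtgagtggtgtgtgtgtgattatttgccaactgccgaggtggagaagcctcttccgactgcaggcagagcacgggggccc
The match lay 169 to 152 bases before the start in CYP3A4 and 113 to 96 bases before it in CYP3A5. Over the 200 bases, CYP3A4 and CYP3A7 were identical at 94.0% of 199 aligned bases, CYP3A4 and CYP3A5 at 81.0% of 142, and CYP3A5 and CYP3A7 at 78.3% of 143.

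Since related genes can share reads, each region was compared with the whole genome. None of the 19 had another place with at least 95% identity over at least 90% of its 200 bp. The intronic CYP3A5 site was 90% identical to a place in the same cluster, where no list had a peak. The site 13.6 kb before CYP3A5 is repeated sequence, with 8990 partial matches covering at least 50% of it. Its best match (90.5% identity) was on chromosome 12, where all 3 lists also had a peak, and the part that repeats play in its values was not tested. The sites of CYP1A1, CYP1A2, CYP2E1, CYP3A4 and CYP7A1 had no such partial matches.

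CYP7A1 catalyses the first and rate-limiting step of the classical bile acid pathway. The nearest summit to its start lay 13.3 kb away in each list, and its 2 regions, on either side of the gene, were in all 3 lists. The downstream region, at +21.4 kb in NTG, had a fold enrichment of 8.31 in NTG, 4.58 in siINO80#1 and 4.26 in siINO80#2, at percentiles 94.4, 75.1 and 72.5. In NTG it had the highest fold enrichment of the 19 regions, although the pileup at the CYP27A1 start was higher. Its pileup of 41, 28 and 26 fragments was 10.7, 5.43 and 4.87 times background, and the siINO80 values were 0.506 (0.301 to 0.838) and 0.454 (0.267 to 0.760) of NTG. The siINO80#1 summit lay at +21.8 kb, within the same merged region, so NTG and siINO80#1 may not mark the same point. NTG had a weaker summit close to that of siINO80#1, with a fold enrichment of 3.50. The siINO80#2 summit lay at +21.4 kb, as in NTG.

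The upstream region of CYP7A1, 13.3 kb before its start, held close values in the 3 lists. Its fold enrichment was 4.15 in NTG, 4.71 in siINO80#1 and 4.26 in siINO80#2, at percentiles 66.0, 76.4 and 72.5. The pileup was 19, 28 and 26 fragments, and relative to background the siINO80 values were 1.09 (0.588 to 2.07) and 0.979 (0.521 to 1.87) of NTG. At the strongest summit of each list, the downstream region was thus lower in both siINO80 lists than in NTG, and the upstream region was not. The difference between them was not tested.

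CYP27A1, the mitochondrial sterol hydroxylase that begins the alternative bile acid pathway, had the most open start of the 9 genes by pileup. The strongest summit lay 28 bp after the start in NTG, 19 bp before it in siINO80#1 and 66 bp before it in siINO80#2, and each list had 2 intervals in the region. The fold enrichment was 4.97, 4.09 and 3.72, at percentiles 75.8, 69.0 and 63.4. The pileup was 52, 56 and 48 fragments, 13.6, 10.9 and 9.0 times background, and the siINO80 values were 0.798 (0.537 to 1.19) and 0.661 (0.437 to 0.997) of NTG. Its promoter is printed because it is the single one of the 9 with a summit within 100 bp of the start in each list.
CYP27A1 promoter, chr2:219646670-219646869, plus strand: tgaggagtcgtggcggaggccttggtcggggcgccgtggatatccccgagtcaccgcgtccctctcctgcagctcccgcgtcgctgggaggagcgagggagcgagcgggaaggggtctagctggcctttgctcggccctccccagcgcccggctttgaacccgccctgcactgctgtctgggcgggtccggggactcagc
It had a GC content of 71.5% and 20 CpG, against 37% and 0 CpG in the CYP2C8 promoter above, and none of the motifs searched.

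Inside intron 1 of CYP27A1, a region at +23.6 kb in NTG lay 121 bp before the start of a shorter CYP27A1 transcript. Its fold enrichment was 4.22 in NTG, 3.06 in siINO80#1 and 2.5 in siINO80#2, at percentiles 67.2, 46.1 and 15.8. The pileup of 23, 24 and 19 fragments was 6.02, 4.65 and 3.56 times background, with ratios to NTG of 0.773 (0.418 to 1.43) and 0.591 (0.304 to 1.13). The siINO80#1 summit was at +24.3 kb, so the lists may not mark the same point of this 1156 bp region. Another 2 regions of CYP27A1, 15.8 kb before the start and at +12.7 kb, were in NTG alone with fold enrichments of 4.15 and 2.76 (percentiles 66.0 and 23.3). The first of these is highly repeated sequence, with 875580 partial matches, and the second had 282.

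**Figure D3:**
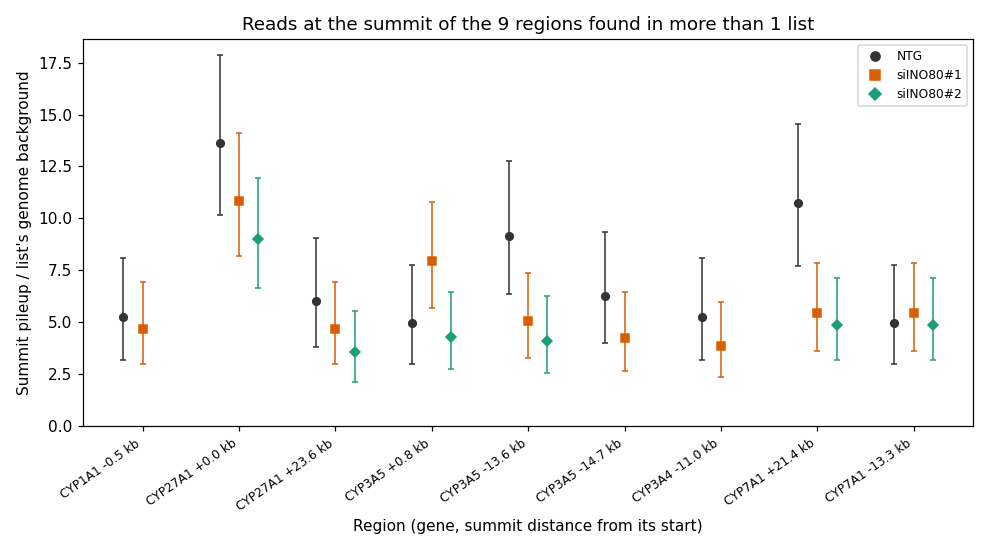
Summit pileup divided by the genome background of its list (vertical axis) for the 9 regions found in more than 1 list, with exact 95% Poisson intervals, which cover counting error alone. Circles are NTG, squares siINO80#1 and diamonds siINO80#2. The highest NTG values were at CYP27A1 +0.0 kb (13.6), CYP7A1 +21.4 kb (10.7) and CYP3A5 -13.6 kb (9.17). The siINO80#1 value stood above those of the other lists at CYP3A5 +0.8 kb (7.95) and CYP7A1 -13.3 kb (5.43).

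In the 6 regions of all 3 lists, the percentile was lower than in NTG by at least 10 points in both siINO80 lists in 3, against 15.6% of the 29863 such regions of the genome. The 3 were the CYP27A1 intronic, CYP3A5 upstream and CYP7A1 downstream regions. It was higher by at least 10 points in both in 0 of 6, against 12.2%. Percentiles taken among the regions of all 3 lists left the count of lower regions at 3, against 17.5% of such regions of the genome. They gave 2 higher regions, the CYP3A5 intronic and CYP7A1 upstream ones, against 17.0%. Over all such regions the pileup over background had a median ratio to NTG of 0.905 in siINO80#1 and 0.750 in siINO80#2, so that most peaks stood less high over background in the siINO80 lists. Beside these medians, the CYP3A5 upstream and CYP7A1 downstream regions lay below the lower quartiles of 0.741 and 0.610 in both siINO80 lists, and the CYP27A1 intronic region lay below that of siINO80#2. The counting intervals of the CYP3A5 upstream region contained the medians in both lists. Those of the CYP7A1 downstream region contained the median in siINO80#2 but not in siINO80#1 (0.301 to 0.838). That siINO80#1 ratio sets a summit at +21.8 kb against an NTG summit at +21.4 kb. Close to the siINO80#1 summit, the fold enrichment was 3.50 in NTG and 4.58 in siINO80#1. The CYP27A1 start and intronic intervals contained the medians in both lists. The CYP3A5 intronic region lay above the upper quartile of 1.11 in siINO80#1, and the CYP7A1 upstream region lay above that of 0.936 in siINO80#2.

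The start sites of the other 48 P450 genes of the annotation were examined in the same way. In NTG 15 of 48 had an open start, in siINO80#1 15 and in siINO80#2 12, and 12 were open in all 3 lists, beside 55.8%, 55.8%, 49.1% and 47.0% of all coding genes. They were then grouped by known function, a grouping made after their values were seen. Of 5 further sterol and bile acid genes, 5 were open in NTG and 4 in each siINO80 list. Of 16 further genes of families 1 to 3, 4 were open in NTG, 5 in siINO80#1 and 3 in siINO80#2. Family 4, which hydroxylates fatty acids, had 4, 3 and 3 of 12 open, and the remaining families 2, 3 and 2 of 15. The 5 genes with the highest NTG percentile were CYP2R1, a vitamin D hydroxylase (99.8), CYP39A1, an oxysterol hydroxylase (99.5), CYP2U1 (98.6), CYP2J2, an arachidonic acid epoxygenase (96.2), and CYP20A1 (95.6). CYP8B1, the sterol hydroxylase that sets the ratio of the primary bile acids, had a start-site peak in NTG alone at percentile 43.0, and so had CYP4F11 at percentile 15.7.

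**Figure D4:**
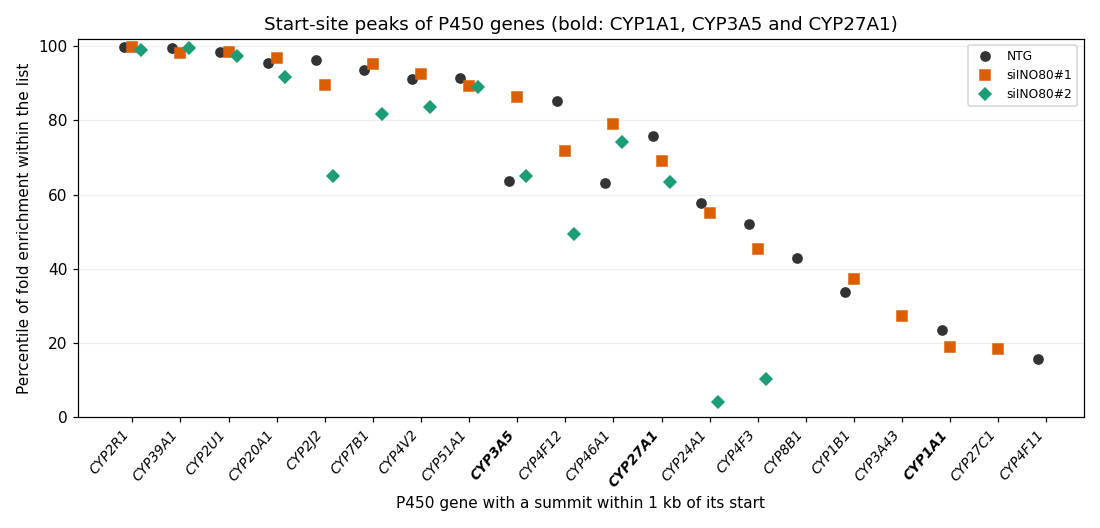
Percentile of fold enrichment within the list (vertical axis) of the start-site peak of the 20 P450 genes open in at least 1 list, ordered by their highest percentile, with CYP1A1, CYP3A5 and CYP27A1 in bold; the other 6 of the 9 described genes were open in no list and are not drawn. Circles are NTG, squares siINO80#1 and diamonds siINO80#2. CYP2R1 and CYP39A1 lie near the top in each list, CYP3A5 and CYP27A1 in the middle, and CYP1A1 near the bottom without a siINO80#2 symbol.

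Among the 12 other P450 genes open in all 3 lists, those most like CYP3A5 by the summed absolute difference of the 3 start-site percentiles were CYP46A1 (17.1 points) and CYP2J2 (36.1). Those most like CYP27A1 were CYP4F12 (26.3) and CYP46A1 (33.5). CYP46A1, a cholesterol hydroxylase of brain, had percentiles of 63.1, 78.9 and 74.2.

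The promoters of P450 genes open and not open in NTG also differed in median base composition, which the choice of genes did not use. Their ranges overlapped widely, and the same split was not made over all coding genes. Over the 200 bases before the start, the 18 P450 genes open in NTG had a median GC content of 65.8% (46.5 to 78) and a median of 14 CpG. The 39 that were not open in NTG, among them CYP3A43 and CYP27C1 with an open start in siINO80#1, had medians of 53% (36 to 76.5) and 2 CpG. The median of all coding genes was 64.5% and 15 CpG. CYP3A5, at 46.5% GC and 2 CpG, had the lowest GC content of those open in NTG, and its summit lay in intron 1.

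Start sites were also read for the enzymes that feed electrons to P450s and for regulators of their genes, beside the same shares of all coding genes (55.8%, 55.8% and 49.1% in the 3 lists, and 47.0% in all 3). POR, CYB5A, FDX1 and FDXR, which carry electrons to microsomal or mitochondrial P450s, were open in all 3 lists (4 of 4). Of 11 regulators, 8 were open in each list and 7 in all 3. AHR and ARNT, which together bind the xenobiotic response element, and NR1I2, the pregnane X receptor, were open throughout, at NTG percentiles of 92.6, 94.95 and 80.8. NR1I3, the constitutive androstane receptor, had a start-site peak in NTG (percentile 69.8) and siINO80#1 (49.7) but not in siINO80#2. NR1H4, the bile acid receptor FXR, had one in siINO80#2 alone (48.2), and AHRR and RXRA had none.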

How the data were processed

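ATAC-seq of 9 HepG2 samples was represented by 3 deposited peak lists, 1 per siRNA, which the authors made from 3 pooled replicates each. The submitters' processing notes name Trim Galore 0.4.1, Bowtie2, SAMtools, MACS2, deepTools 2.2.4 and the build hg19, without giving their roles. Fold enrichment is a ratio of summit to local background that the authors' peak caller computed without an input library, and p and q were deposited as −log10 values (lowest −log10 q 1.30). The lists had been filtered by a criterion not given in the sources used here.

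Groups came from the sample titles. Intervals listed more than once, with a row per summit, were kept as 1 peak at the summit of highest fold enrichment. Genes were taken from GENCODE 44 on GRCh37, with the MANE Select, APPRIS or canonical transcript as principal. Lists were merged into regions of 7 classes. Pileup was solved as the whole number that gives the deposited fold enrichment and −log10 p under a Poisson model with a pseudocount of 1. The largest error in −log10 p was 0.000246, and 2, 8 and 5 peaks of the NTG, siINO80#1 and siINO80#2 lists were not solved. Genome background is the smallest background solved in a list. The number of sequenced reads is unknown. Exact Poisson and Clopper-Pearson intervals (95%) cover counting error alone, and fragments from PCR are not independent molecules. Motifs were searched in 200 bp at the strongest summit of each region, and copies with blastn 2.17.0.

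Regions within 1 kb of a member's start, all 9 members, the other P450 genes that differed between NTG and both siINO80 lists, the 5 with the highest NTG percentile and the most alike genes are named. The 9 genes and all lists were chosen with earlier results of these data known, and the functional grouping of the 48 other P450 genes was made after their values were seen. PECAM1, a marker of endothelium, did not match the annotation and was left out, and a marker and the sequence of a site are not reported here. The alternatives tried are given in the closing section. Pileup solving, merging, classing and the motif search were tested on simulated data. They recovered 100% of 3000 pileups, 999 merged regions (against bedtools 2.31.1), their classes and 500 matches of the xenobiotic response core. The pileups were simulated under the same Poisson model that the solution assumes. The other motifs, the start-site calls, the copies and the intervals were not tested in this way. The tools were scipy 1.17.1, Biopython 1.88, pysam 0.24.0, numpy 2.4.6 and pandas 2.3.3 on Python 3.11.15, with plots by matplotlib 3.10.9.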

Additional observations from a re-analysis of the deposited data

Results flagged for a closer look

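In 2 regions of all 3 lists the summit pileup over background differed from NTG in opposite directions in the lists of the siRNAs against INO80. The region in intron 1 of CYP3A5 was at 1.60 times NTG in siINO80#1 and 0.866 times in siINO80#2. The region 13.3 kb before CYP7A1 was at 1.09 times NTG in siINO80#1 and 0.979 times in siINO80#2. All 4 counting intervals span 1, and the median ratios over all regions of the 3 lists were 0.905 and 0.750. By percentile within the list both regions were higher than NTG in both siINO80 lists, by 22.7 and 1.35 points at CYP3A5 and by 10.4 and 6.48 points at CYP7A1. The difference between the siRNAs was not tested in either case, since each had 1 list.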

How the results depend on the processing

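Of 129 recomputed counts, 80 stayed within 1.5 times the reported count and 49 did not. Members open at the start numbered 2 in each list at a −log10 q of at least 5 and at equal list size, CYP1A1 being lost. Among the 10000 strongest peaks they numbered 0 in NTG, 1 in siINO80#1 and 0 in siINO80#2, and where the peak had to cover the start base 1 in NTG and 1 in siINO80#1. A distance of 2.5 kb left 3, 3 and 2. Any annotated start gave 3, 4 and 2, and so did 2.5 kb of any annotated start, which was added after seeing the data.

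The number of regions changed with the window and with the strength asked of a peak. Gene bodies alone held 9 regions (7 with a peak in NTG, 4 in siINO80#1, 4 in siINO80#2, 3 in all 3 lists, 4 in NTG alone, 1 only in siINO80#1 and 0 in NTG with siINO80#1), 5 kb on either side 10 (8, 5, 4, 3, 4, 1 and 1) and 50 kb 35 (27, 24, 16, 14, 9, 7 and 3, with 1 in NTG with siINO80#2). At a −log10 q of at least 5 there were 10 regions, 9 with a peak in NTG, 7 in siINO80#1, 3 in NTG alone, 1 only in siINO80#1, 0 only in siINO80#2 and 1 in NTG with siINO80#1. The 10000 strongest peaks left 3 regions, 2 in NTG (2 in NTG alone), 1 in siINO80#1 (1 in siINO80#1 alone), 0 in siINO80#2 (0 in siINO80#2 alone), 0 in NTG with siINO80#1 and 0 in all 3 lists. At equal list size 4 regions were in NTG alone. An overlap of 50% gave 20 regions and merging within 500 bp gave 18, with 0 in siINO80#2 alone. The number in both siINO80 lists without NTG was 0 under each of these settings. Shares of all regions were not computed under them.

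Scales added after seeing the data moved the percentile counts of the 6 regions of all 3 lists. With a step of 20 points 1 region was lower in both siINO80 lists, against 6.32% of such regions of the genome. With 5 points 4 were lower, against 25.3%, and 1 was higher, against 17.8%. With percentiles among regions of all 3 lists 2 were higher, against 17.0%. Ranking by −log10 q raised 10 and lowered 24 of 34 percentiles, by -9.78 to 12.7 points. Motif counts in 300 bp stayed within 1.5 times. No paired analysis was possible because the replicates of each siRNA share 1 list, and no replicate could be left out for the same reason. The depth limits what can be called: pileups of the 19 regions ran from 13 to 56 fragments, so most counting intervals of a ratio to NTG span 1.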
